A study of Mus musculus with 4 samples.

Results

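Mitochondrial protein import is the route by which proteins encoded in the nucleus reach the mitochondrion. Its genes were taken from the deposited expression table by symbol: all Tomm and Timm genes with a number in their name, together with Pam16, Dnajc19, Dnajc15, Grpel1, Grpel2, Hspa9, Pmpca, Pmpcb, Samm50, Mtx1, Mtx2, Chchd4 and Gfer, leaving out pseudogene symbols and rows that carry several symbols. The rule itself used no measured value and found 31 genes among 47935 loci. It was, however, chosen with earlier results of these data known, so the shares below do not come from a list picked blind.

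The samples were MEL cells, a mouse erythroleukemia line that stays at an early erythroid stage and starts to differentiate along the erythroid line in dimethyl sulfoxide (DMSO). The 4 RNA samples fell into 2 groups of 2. The DMSO-induced samples came from cells given 1.5% DMSO and the uninduced samples from cells for which the labels name no inducer. Both groups used the same line and the same complete medium, and ribosomal RNA was depleted before library preparation. As a transformed line MEL cells are a model of erythroid differentiation and not normal erythroblasts, and neither the subclone nor the time in DMSO is given in the sources used here. No source says whether the replicates were separate cultures, so each p-value speaks for the scatter of these 4 samples alone, which may be of technical origin.

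Most mitochondrial proteins are made in the cytosol and enter through the TOM complex of the outer membrane. From there, precursors with a cleavable presequence pass the TIM23 channel and are pulled in by the PAM motor, carrier proteins travel with small TIM chaperones to TIM22, beta-barrel proteins are inserted by SAM, and small cysteine-rich proteins are trapped by the disulfide relay of Chchd4 and Gfer. Erythroid cells depend on this route because the first and the last steps of heme synthesis use imported mitochondrial enzymes, while maturing red cells later discard their mitochondria.

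Values are FPKM, which counts sequenced fragments relative to transcript length and to the library's total, so levels can be set side by side between genes. FPKM summed to 1246536 and 1100517 in induced replicates 1 and 2, and to 1055861 and 1325806 in uninduced replicates 1 and 2. Depth was not given. In single-exon transcripts of 380 to 520 bases the lowest values clustered at 0.232 and 0.212 FPKM in the induced samples and at 0.172 and 0.162 FPKM in the uninduced ones. If each cluster marks 1 fragment and values were not rescaled between samples, relative depth was 0.70, 0.76 and 0.94 of uninduced 2 in induced 1, induced 2 and uninduced 1. The quantifier is not named, so neither assumption was tested. All 10 erythroid markers reached 1 FPKM in at least 1 sample, and their summed FPKM was 59341 and 112904 in the induced samples against 1470 and 1762 in the uninduced ones. The markers of T cells, B cells and fibroblasts that had a row of their own (all but Lck and Col3a1) stayed under 1 FPKM in all samples, and those of macrophages or granulocytes summed to 2.18 and 1.34 FPKM in induced against 7.76 and 5.31 FPKM in uninduced samples, with Cd68 the highest of them at 1.72 and 0.67 FPKM in induced against 7.09 and 4.68 FPKM in uninduced samples. The 3 epithelial markers summed to 0.03 and 0.27 FPKM in induced against 1.71 and 1.57 FPKM in uninduced samples. The megakaryocyte markers with a row of their own, Pf4 and Gp9, summed to 111 and 142 FPKM in induced samples against 201 and 332 FPKM in uninduced samples; the part of such transcripts in the results below was not tested.

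Transcripts of part of the import machinery fell in DMSO-induced cells, most often among the small TIM chaperones (4 of 5 tested) and in the PAM motor (3 of 5). Timm8b, the most abundant small TIM, was not called and its groups overlapped. The PAM calls of Timm44 and Grpel1 lay near the threshold and were lost under quantile normalization and under another scaling, as given below. Of the 31 genes, 28 reached 1 FPKM in at least 2 samples and were tested, and the other three, Dnajc15, Timm8a2 and Tomm20l, were listed at 0 in all 4 samples. Of the 28 tested, 12 fell after induction at an adjusted p under 0.05 (limma-trend on log2(FPKM + 1), Benjamini-Hochberg over all loci), which is 42.9%, and none rose. Over all 12890 loci tested, 14.7% were called lower and 11.5% higher; among loci with at least 5 FPKM in 2 samples 16.5% were called lower. The 12 were Tomm40, Tomm5, Samm50, Timm50, Hspa9, Timm44, Grpel1, Timm8a1, Timm9, Timm10, Timm13 and Chchd4. The fall was at least 2-fold in 9 of them, where 11.8% of all loci were called with such a fall. All log2 fold changes below are DMSO-induced over uninduced on the log2(FPKM + 1) scale, given ± SE, and mean levels are ± SD over 2 samples a group.

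Both induced values lay below both uninduced values in 23 of the 28 genes, or 82.1%, against 34.7% of all loci. The median log2 fold change of the 28 was -0.73, beside 0.03 over all loci tested. The 31 genes summed to 1532 and 1436 FPKM in induced samples against 2807 and 2505 FPKM in uninduced samples. As a share of each sample's summed FPKM this was 0.1229% and 0.1305% in induced against 0.2659% and 0.1889% in uninduced samples, so the uninduced replicates differed in share. In bulk RNA, fewer cells with a transcript and less of it per cell cannot be told apart. Genes and complexes said to fall here did so in RNA, and these data hold no measure of protein levels or of import itself. The calls needed all 4 samples: limma called 4 of the 28 lower without induced replicate 1 (Tomm40, Hspa9, Chchd4 and Timm8a1) and 0 without induced replicate 2, uninduced replicate 1 or uninduced replicate 2, with 11, 12 and 16 of the 28 at an unadjusted p under 0.05. The same omissions cut the calls over all loci from 3377 to between 14 and 486.

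**Figure D1:**
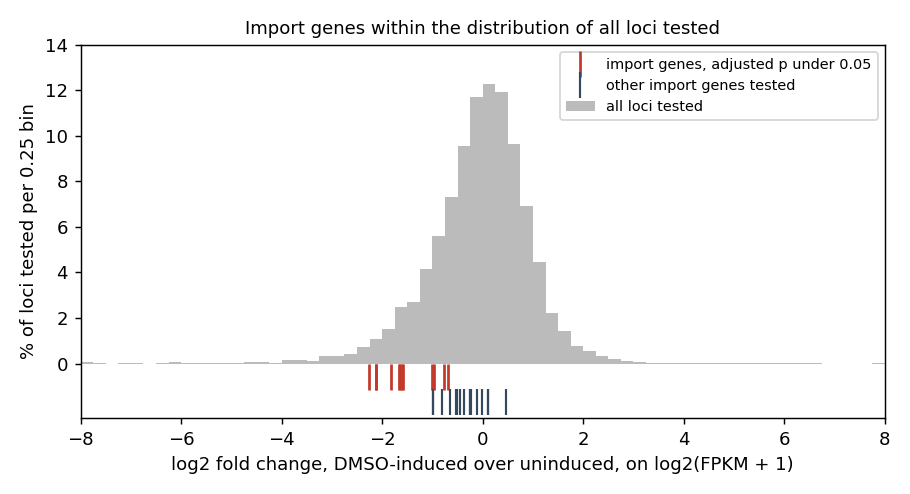
The grey histogram gives the percentage of the 12890 loci tested (y axis) per bin of log2 fold change, DMSO-induced over uninduced (x axis); red ticks mark the 12 import genes past the threshold and dark ticks the other 16 tested. The import genes run from -2.27 to 0.47 and 25 of the 28 lie below 0.

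Among the TOM genes, 2 of 7 tested fell and the other 5 did not pass. Tomm40 forms the channel through which nearly all precursors cross the outer membrane (chromosome 7, 19701313 to 19715438, GENCODE M21 on GRCm38, as are all gene positions here). It measured 28.6 and 18.9 FPKM in induced samples against 131 and 103 FPKM in uninduced samples. At -2.27 ± 0.27 it had the lowest log2 fold change of the 28 genes (limma adjusted p = 0.013). An antisense gene, Gm20512, shares 258 exonic bases with Tomm40; it was at 1.48 and 1.14 FPKM in induced and 7.37 and 9.27 FPKM in uninduced samples, and since strand handling is not given, its reads and those of Tomm40 cannot be told apart.

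Tomm5, a small subunit that stabilises the channel (chromosome 4, 45105208 to 45108114), measured 91.6 and 73.6 FPKM in induced samples against 300 and 225 FPKM in uninduced samples. The groups did not overlap, and the log2 fold change was -1.65 ± 0.24 (limma adjusted p = 0.0167). Tomm7, another small subunit of the same complex (chromosome 5, 23838944 to 23844161), was the one gene of the 28 whose induced values both lay above the uninduced ones, at 170 and 196 FPKM against 126 and 138 FPKM; such an order was seen in 36.1% of all loci. Its change, 0.47 ± 0.20 on the log2 scale, did not pass (limma adjusted p = 0.138), but did under quantile normalization (0.75, adjusted p = 0.0419). In a pair chosen after the values were seen, the ratio of Tomm5 to Tomm7 FPKM was 0.539 and 0.375 in induced samples and 2.38 and 1.63 in uninduced samples. Processed pseudogenes match parts of both: Gm8069 matches Tomm5 over 154 bases at 98.7% identity, and Gm13450 and Gm45113 match Tomm7 over 168 and 165 bases at 95.8%.

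The TOM receptors Tomm22 and Tomm70a were lower in both induced samples without passing the threshold. Tomm20 had no row of its own, and the row it shares with Gm26397, given below, fell. Tomm22, the central receptor (chromosome 15, 79670861 to 79673400), had a log2 fold change of -0.65 ± 0.20 and a limma adjusted p of 0.069, and it passed under median-of-ratios scaling (-0.73, adjusted p = 0.0438). Tomm70a, the receptor that takes carrier precursors from cytosolic chaperones, had one of -0.80 ± 0.25 (adjusted p = 0.0716). Tomm34, a cytosolic cochaperone, was low, at 15.6 and 19.6 FPKM in induced and 21.9 and 19.7 FPKM in uninduced samples. Its induced replicate 2 nearly reached uninduced replicate 2, and it did not pass (-0.24 ± 0.21, adjusted p = 0.43).

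**Figure D2:**
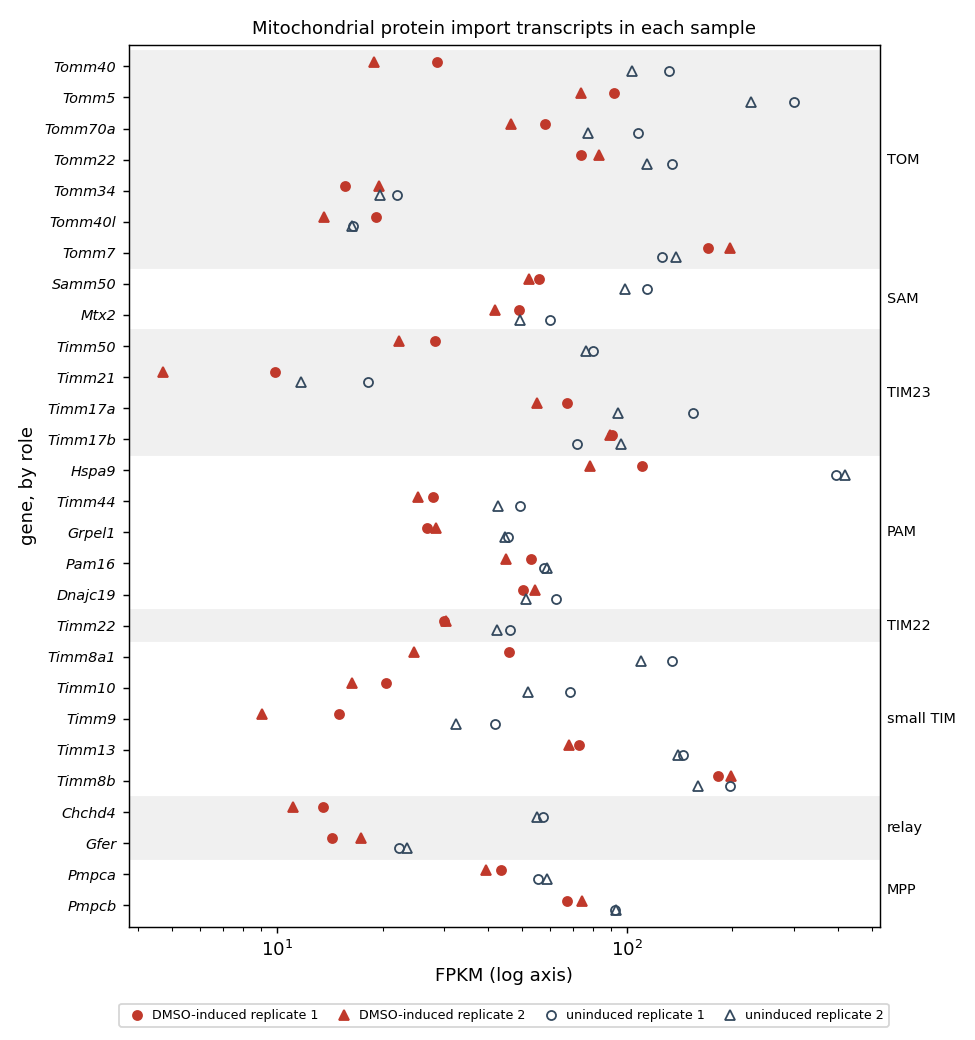
Each row is an import gene, grouped by role (named on the right), and the x axis is FPKM on a log scale; filled red points are the DMSO-induced samples and open dark points the uninduced ones, with circles for replicate 1 and triangles for replicate 2. In 23 of the 28 rows both red points lie left of both open points, and only in Tomm7 do both lie to the right.

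Of the SAM genes with a row of their own, Samm50 fell and Mtx2 did not pass. The row that Mtx1 shares with Mir92b, given below, fell. Samm50, the beta-barrel insertase of the outer membrane (chromosome 15, 84192241 to 84217267), was at 55.8 and 52.4 FPKM in induced samples and 114 and 98.6 FPKM in uninduced samples. The groups did not overlap and the log2 fold change was -0.96 ± 0.19 (limma adjusted p = 0.0265); it did not pass when values were rescaled to the sum of the less abundant, non-globin loci (-0.86, adjusted p = 0.0527). Mtx2, a metaxin that works with SAM (chromosome 2, 74825803 to 74878431), was at 49 and 41.8 FPKM in induced samples and 60.3 and 49.3 FPKM in uninduced samples. Its log2 fold change was -0.26 ± 0.21 (95% interval -0.80 to 0.27, adjusted p = 0.379).

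In the TIM23 channel, the receptor Timm50 fell, and Timm17a, Timm17b and Timm21 did not pass. Timm50, which receives presequences on the inner membrane (chromosome 7, 28305516 to 28312072), was at 28.3 and 22.2 FPKM in induced samples against 80.0 and 76.2 FPKM in uninduced samples. This was a log2 fold change of -1.60 ± 0.21, with a limma adjusted p of 0.014. Timm17a and Timm17b encode alternative core subunits of the channel. Timm17a (chromosome 1, 135295213 to 135313778) was at 67.3 and 55.1 FPKM in induced samples and at 154 and 94.3 FPKM in uninduced ones, and it did not pass (-0.98 ± 0.30, adjusted p = 0.0673). Timm17b (chromosome X, 7899357 to 7908351) was at 90.6 and 89.1 FPKM in induced samples, within its uninduced values of 71.8 and 95.9 FPKM (0.11 ± 0.22, 95% interval -0.45 to 0.68, adjusted p = 0.718). Timm21, which links TIM23 to TOM, had the lowest mean level of the 28 genes in both groups, at 9.85 and 4.71 FPKM in induced and 18.1 and 11.7 FPKM in uninduced samples (-0.99 ± 0.39, adjusted p = 0.122).

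In the PAM motor, 3 of 5 genes tested fell. Hspa9, the matrix HSP70 that pulls precursors inward (chromosome 18, 34937414 to 34954357), was at 111 and 78.2 FPKM in induced samples against 397 and 421 FPKM in uninduced samples. Its log2 fold change was -2.12 ± 0.25 (limma adjusted p = 0.0128). It was the most abundant of the 31 genes in uninduced cells, where it made up 14.1% and 16.8% of their summed FPKM, and held 7.22% and 5.44% in induced cells. The Hspa9 row names 4 transcripts. GENCODE M21 places 1 of them in Hspa9 and 0 in another gene, and does not list the rest.

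Of the partners of Hspa9, Timm44 and Grpel1 fell, each by less than 2-fold. Timm44, which tethers Hspa9 to the channel (chromosome 8, 4259731 to 4275913), was at 27.9 and 25.3 FPKM in induced samples and 49.4 and 42.6 FPKM in uninduced samples (-0.77 ± 0.19, limma adjusted p = 0.044). Grpel1, its nucleotide exchange factor (chromosome 5, 36464998 to 36474080), was at 26.7 and 28.4 FPKM in induced samples and 45.5 and 44.8 FPKM in uninduced samples (-0.69 ± 0.18, adjusted p = 0.0461). Tada2b, on the opposite strand, shares 411 exonic bases with Grpel1 and was at 8.34 and 8.17 FPKM in induced and 8.38 and 6.47 FPKM in uninduced samples, and its reads cannot be told apart from those of Grpel1 there. Neither gene of the pair Timm44 and Grpel1 passed under quantile normalization (adjusted p = 0.0663 for Timm44 and 0.0737 for Grpel1) or with the rescaling to less abundant, non-globin loci (0.0976 and 0.0931).

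The J-domain partners of the motor did not pass. Dnajc19, which stimulates Hspa9 (chromosome 3, 34056020 to 34081321), was at 50.5 and 54.7 FPKM in induced samples and 62.6 and 51.4 FPKM in uninduced samples, so that the groups overlapped (-0.11 ± 0.20, 95% interval -0.62 to 0.40, adjusted p = 0.706). Its sign turned under quantile normalization (0.10). Dnajc19 shares 178 exonic bases with Fxr1 on the opposite strand, which was at 54.2 and 50.6 FPKM in induced and 37.5 and 22.3 FPKM in uninduced samples; the part of Fxr1 reads in the Dnajc19 value was not tested. Its paralogue Dnajc15 was listed at 0 in all samples. Pam16, which regulates Dnajc19, was at 53.0 and 45 FPKM in induced and 57.9 and 58.9 FPKM in uninduced samples (-0.25 ± 0.19, adjusted p = 0.354). Pam16 shares 455 exonic bases with Glis2 on the opposite strand and matches Gm9803 over 534 bases at 100% identity. Both of those rows stayed at or under 2.7 FPKM, and the part of their reads in the Pam16 value was not tested.

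Small TIM chaperones, which carry hydrophobic precursors across the intermembrane space, fell in 4 of the 5 genes tested. Timm9 and Timm10 form 1 chaperone together. Timm9 (chromosome 12, 71123173 to 71136684) was at 15 and 9.03 FPKM in induced samples against 41.9 and 32.4 FPKM in uninduced samples (-1.58 ± 0.30, limma adjusted p = 0.0241). Timm10 (chromosome 2, 84826997 to 84830213) was at 20.5 and 16.3 FPKM in induced samples against 68.7 and 52.2 FPKM in uninduced samples (-1.66 ± 0.24, adjusted p = 0.0156). Neither gene had an overlap between the groups.

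Timm8a1 and Timm13 form the other chaperone. Timm13 (chromosome 10, 80899450 to 80900969) was at 72.7 and 68.1 FPKM in induced samples and 145 and 140 FPKM in uninduced samples (-1.01 ± 0.18, limma adjusted p = 0.0222). Timm8a1 (chromosome X, 134537256 to 134541865) was at 46.1 and 24.6 FPKM in induced samples against 134 and 109 FPKM in uninduced samples (-1.82 ± 0.34, adjusted p = 0.0235). The transcribed pseudogene Gm9797 matches Timm8a1 over 612 bases at 100% identity, so reads could fall to either; its own row stayed at or under 0.38 FPKM. Timm8b, a relative of Timm8a1 (chromosome 9, 50603910 to 50605320), was the most abundant small TIM in both groups, at 182 and 198 FPKM in induced samples and 196 and 160 FPKM in uninduced samples (0.10 ± 0.21, 95% interval -0.44 to 0.64, adjusted p = 0.742). Its groups overlapped.

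**Figure D3:**
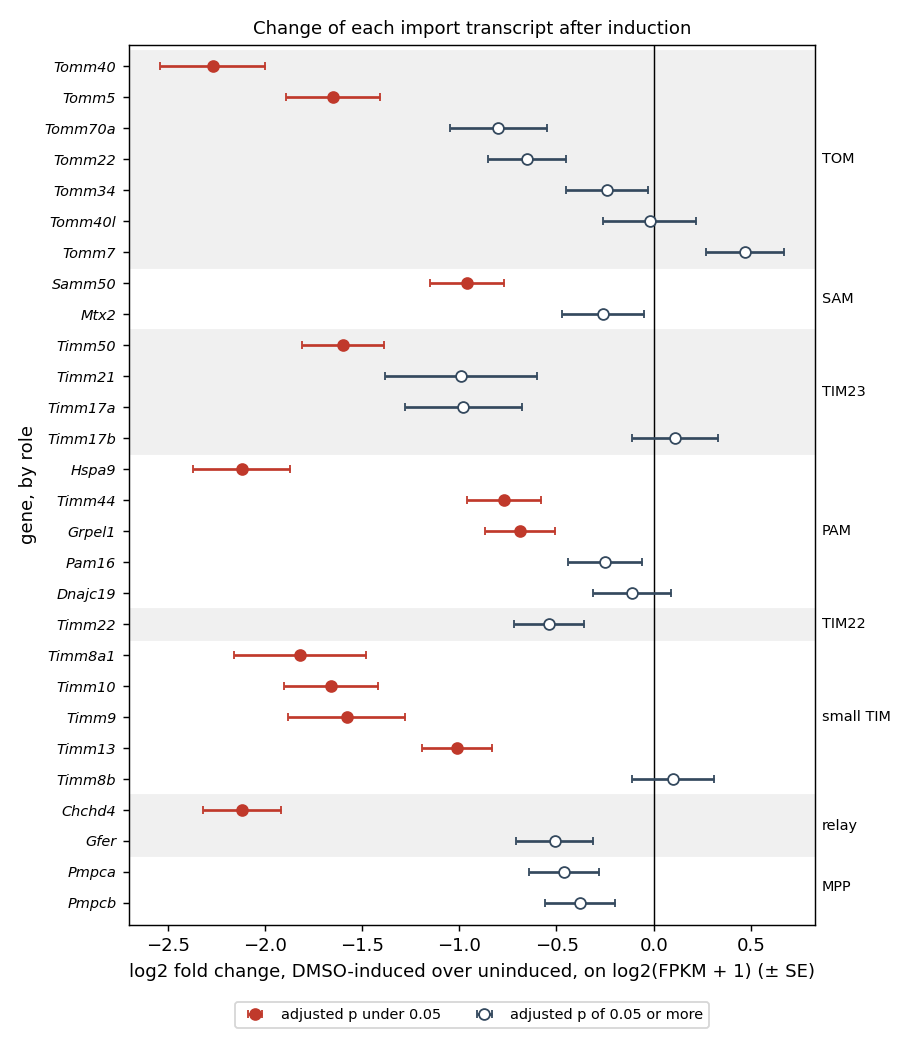
Points give the log2 fold change of each import gene, DMSO-induced over uninduced, on the log2(FPKM + 1) scale (x axis), with SE bars and genes ordered by role; red filled points passed an adjusted p of 0.05 and open points did not. Chchd4, Hspa9 and Tomm40 lie furthest left, at -2.12, -2.12 and -2.27.

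In the disulfide relay, the transcript of the oxidoreductase fell and that of the enzyme that reoxidises it did not pass. Chchd4, the mammalian form of Mia40 (chromosome 6, 91462172 to 91473546), was at 13.5 and 11.1 FPKM in induced samples against 57.4 and 55.2 FPKM in uninduced samples. The change was -2.12 ± 0.20 on the log2 scale, with the lowest limma adjusted p of the 28 genes (0.0106). Gfer, the sulfhydryl oxidase of the relay, was at 14.3 and 17.3 FPKM in induced samples and 22.3 and 23.5 FPKM in uninduced samples (-0.51 ± 0.20, adjusted p = 0.117).

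The carrier translocase and the presequence peptidase were lower in both induced samples, yet none of their genes passed. Timm22, the carrier channel of the inner membrane (chromosome 11, 76406952 to 76416292), was at 30.0 and 30.2 FPKM in induced samples and 46.3 and 42.3 FPKM in uninduced samples (-0.54 ± 0.18, limma adjusted p = 0.0829). Pmpcb, the catalytic subunit of the peptidase that removes presequences (chromosome 5, 21737141 to 21757152), was at 67.2 and 74.3 FPKM in induced samples and 92 and 93.1 FPKM in uninduced samples (-0.38 ± 0.18, adjusted p = 0.172). Pmpca, its partner subunit, had a log2 fold change of -0.46 ± 0.18 (adjusted p = 0.12). Inpp5e, on the opposite strand, shares 874 exonic bases with Pmpca. It was at 10.92 and 10.71 FPKM in induced and 8.4 and 10.75 FPKM in uninduced samples, and the part of its reads in the Pmpca value was not tested.

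The order of abundance among the 31 genes differed between the groups. In induced cells Timm8b (190 ± 11.0 FPKM) and Tomm7 (183 ± 18.4 FPKM) stood first, followed by Hspa9 (94.4 ± 22.9 FPKM), Timm17b (89.9 ± 1.08 FPKM) and Tomm5 (82.6 ± 12.7 FPKM). Of these 5, the induced ranges of Timm8b and Tomm7 overlapped, as did those of the other three. In uninduced cells Hspa9 (409 ± 17.0 FPKM) and Tomm5 (263 ± 52.5 FPKM) came first, then Timm8b (178 ± 25.9 FPKM), Timm13 (142 ± 3.39 FPKM) and Tomm7 (132 ± 8.90 FPKM).

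In the 3 pairs of related genes that were compared, the ratio within each sample was lower in both induced samples. Such an order was seen in 34.7% of single loci, and no share over other pairs was taken. Tomm40 and Timm8a1 had been called lower on their own, so their ratios are not separate evidence. The log2 ratio of Tomm40 to Tomm40l, a paralogue of the channel on chromosome 1 (171216011 to 171222514), was 0.55 and 0.45 in induced samples and 2.92 and 2.59 in uninduced samples. Tomm40l itself was at 19.2 and 13.6 FPKM in induced samples and 16.5 and 16.3 FPKM in uninduced samples. Its log2 fold change was -0.02 ± 0.24 (95% interval -0.62 to 0.58), with a sign that turned under quantile normalization and under the rescaling to less abundant, non-globin loci. Nr1i3, on the opposite strand, shares 3304 exonic bases with Tomm40l, and its own row stayed at or under 0.21 FPKM. The log2 ratio of Timm8a1 to Timm8b was -1.96 and -2.96 in induced samples and -0.54 in both uninduced samples.

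The log2 ratio of Timm17a to Timm17b was -0.42 and -0.68 in induced samples and 1.09 and -0.02 in uninduced samples, so Timm17b exceeded Timm17a in both induced samples and the 2 were level in uninduced replicate 2. The difference between the groups was -2.25 for the Tomm40 pair, -1.91 for the Timm8a1 pair and -1.09 for the Timm17a pair. Each had a two-sided exact permutation p of 0.333, the smallest that 2 samples against 2 allow, and the adjusted value over the 3 pairs is also 0.333. Leaving out uninduced replicate 1 moved the Timm17a difference to -0.53, and leaving out uninduced replicate 2 moved it to -1.65. The Grpel1, Mtx2 and Tomm20l pairs could not be compared because Grpel2, Mtx1 and Tomm20 had no row of their own. The pair of Dnajc19 and Dnajc15 was not compared either, and Dnajc15 was listed at 0 in all samples.

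**Figure D4:**
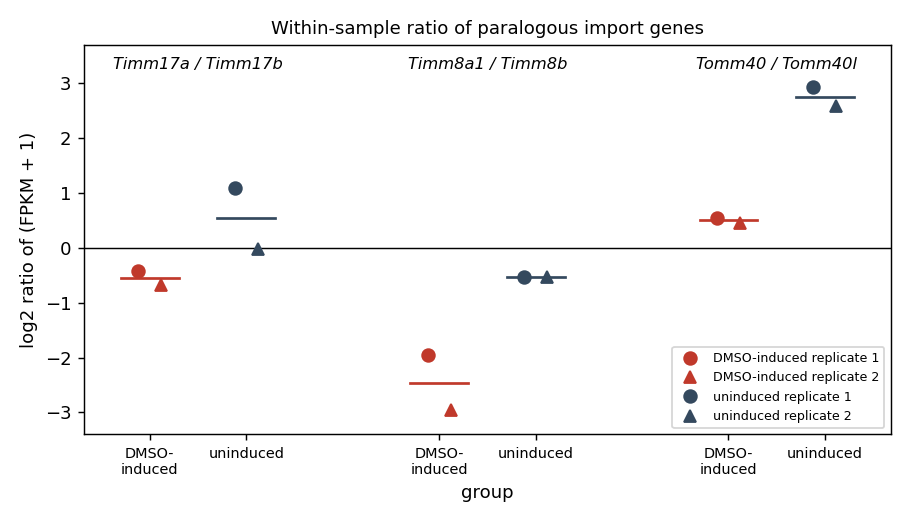
The y axis is the log2 ratio of (FPKM + 1) between 2 related genes in the same sample, for the 3 pairs named at the top; red marks are DMSO-induced and dark marks uninduced samples, circles are replicate 1, triangles replicate 2, and lines the means. In each pair both induced ratios lie below both uninduced ratios.

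The 7 rows outside the rule that carry an import gene's symbol together with others cannot be given to one gene; 2 of them fell and the other 5 did not pass. The row of Tomm20 and Gm26397 was at 97.8 and 96.5 FPKM in induced and 174 and 291 FPKM in uninduced samples (-1.20 ± 0.30, limma adjusted p = 0.0421). The row of Mtx1 and Mir92b was at 58.2 and 44.1 FPKM in induced and 121 and 107 FPKM in uninduced samples (-1.15 ± 0.22, adjusted p = 0.0252). The row of Timm23, the pore subunit of TIM23, and Gm23946 was at 439 and 319 FPKM in induced samples, overlapping the 255 and 372 FPKM of uninduced samples (0.28 ± 0.30, adjusted p = 0.509).

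Other genes linked to import were read from a list of 31, also chosen with earlier results of these data known. Of the list, 27 had a row of their own and 26 were tested. Of the 26 tested, 7 fell, 1 rose and 18 did not pass, beside the 14.7% and 11.5% of all loci called lower and higher. The chaperonin that folds imported proteins fell in both its subunits: Hspd1 was at 136 and 81.3 FPKM in induced against 497 and 319 FPKM in uninduced samples (-1.91 ± 0.36, limma adjusted p = 0.0236), and Hspe1 was at 289 and 259 FPKM against 778 and 604 FPKM (-1.32 ± 0.24, adjusted p = 0.0223). The others were Lonp1, a matrix protease (-1.38 ± 0.25), Dnajc11, which binds SAM (-1.35 ± 0.21), Hsp90ab1, a cytosolic chaperone that hands precursors to Tomm70a (-1.13 ± 0.24), Aifm1, the partner of Chchd4 (-1.08 ± 0.25), and Chchd6, a subunit of the cristae-organising MICOS complex (-1.06 ± 0.23). Their adjusted p-values ran from 0.0177 to 0.0362.

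The gene that rose was Apool, another MICOS subunit, at 43.0 and 38.2 FPKM in induced against 25.2 and 21.2 FPKM in uninduced samples (0.78 ± 0.20, limma adjusted p = 0.0446). That count was 3 under quantile normalization and 0 under both other scalings. Mtch1, an outer membrane insertase homologue, was listed at 0 in induced replicate 2 and at 84.8 to 119 FPKM in the other 3 samples, so its 0 may be a failed estimate.

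Promoters of import genes were searched for short motifs. The windows were the 250 bases before the RefSeq gene start (GRCm38.p6), with 1 kept per gene, the first listed. They were available for 27 of the 31 genes, 11 of them among the 12 that fell. Other starts of a gene, where listed, were not searched. Letters were matched on both strands, with motifs picked after the expression values were known. CCGGAAG, the core of sites for ETS factors, stood in 10 of the 27 windows (37.0%). It stood in 7.05% of all 27025 windows kept from the RefSeq table and in 15.7% of the 7204 windows of genes tested here. It was in 2 of the 11 windows of genes that fell and in 7 of the 13 windows of genes tested and not called. CACGTG, the E-box bound by MYC and MAX, stood in 3 of the 27 windows (11.1%, against 6.05% of all windows and 8.84% of those of genes tested); 2 of these genes fell, and the last, Tomm20l, was not tested. A longer NRF1 motif, not a palindrome and with 1 position open to any letter, was in 2 of the 27 windows (7.41%, against 9.61% of those of genes tested). Of these 2 genes, 1 fell and 1 was not called. A shorter NRF1 core, GCATGCG, was added once these matches were known; it was in 2 windows (6.18% of those of genes tested), both of genes that fell, and nothing is read from that split. AGATAA, which GATA factors bind, was in 2 (5.86% of those of genes tested), and AAGATGGCG, a YY1 motif, in 0 (1.5%). A match is a run of letters, not a bound site.

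The last 100 bases of 6 windows are shown as examples from genes that fell (Tomm40, Timm10, Timm9) and genes that were not called (Timm8b, Tomm22, Pmpcb). The stretches run 5′ to 3′ on the strand of the gene, with CCGGAAG or its complement, or CACGTG, in capitals. They lie at chr7:19715430-19715529 (minus strand), chr2:84826921-84827020 (plus), chr12:71136676-71136775 (minus), chr9:50603801-50603900 (plus), chr15:79670768-79670867 (plus) and chr5:21737060-21737159 (plus). In Tomm22 the CCGGAAG motif stands on both strands and overlaps itself, and Tomm40 has neither motif in its window. The 6 do not stand for their groups. Timm8b, Tomm22 and Pmpcb all carry CCGGAAG, which stood in 7 of the 13 windows of genes not called. Timm10 carries it too, as did 2 of the 11 windows of genes that fell. Timm9 carries CACGTG, which also stood in 2 of those 11.
Tomm40: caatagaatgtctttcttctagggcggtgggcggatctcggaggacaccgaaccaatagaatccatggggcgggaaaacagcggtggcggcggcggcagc
Timm10: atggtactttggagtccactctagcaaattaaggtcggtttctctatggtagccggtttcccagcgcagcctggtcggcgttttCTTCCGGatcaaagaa
Timm9: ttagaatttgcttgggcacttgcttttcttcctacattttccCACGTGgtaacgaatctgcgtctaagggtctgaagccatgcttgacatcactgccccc
Timm8b: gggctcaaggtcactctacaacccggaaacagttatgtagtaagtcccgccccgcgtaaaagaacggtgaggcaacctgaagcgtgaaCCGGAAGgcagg
Tomm22: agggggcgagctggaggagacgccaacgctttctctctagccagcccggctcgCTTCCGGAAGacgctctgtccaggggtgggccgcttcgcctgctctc
Pmpcb: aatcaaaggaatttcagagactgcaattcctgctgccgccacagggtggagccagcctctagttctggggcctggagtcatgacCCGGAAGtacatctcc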

How the data were processed

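RNA was extracted with Trizol and depleted of ribosomal RNA with Ribo-Zero, per the labels' protocols. The submitters' processing notes name TopHat2 and GRCm38; the sources used here name no versions, quantifier, annotation, strandedness or depth. The deposited table has 1 FPKM column per sample, made by the authors without pooling. The unit was inferred: the file headers are those of a Cufflinks tracking table, and the values are not whole and sum to more than CPM or TPM can. Whole counts per locus were not recovered, so no count test was run. FPKM is relative to each library's total, so very abundant transcripts lower the rest.

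Loci that reached 1 FPKM in 2 or more samples, 12890 in all, were fitted as log2(FPKM + 1) in limma 3.58.1 (R 4.3.3; trend, not robust; group only), with Benjamini-Hochberg adjustment at 0.05 over all loci. Tested on simulated data, the fit gave a share of false calls above the nominal 0.05 in every run, and it missed most 2-fold changes. Far fewer loci were changed in the simulations than were called in these data, so both shares need not hold here. A pseudocount of 1 understates changes of low genes. The 95% intervals use limma's moderated SE.

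Gene positions, overlaps and copies (blastn 2.17.0) came from GENCODE M21 and promoters from RefSeq. Values are printed in every sample for genes past the threshold, the most abundant gene of each role, the most positive and most negative fold change and the related pairs; Gfer, Timm21, Tomm34 and Pam16 were added after their values were seen. The genes and lists were chosen with earlier results of these data known. Alternatives were 3 scalings, a 5 FPKM filter or none, leaving out each sample, a replicate block, and 0.1 as the pseudocount.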

Additional observations from a re-analysis of the deposited data

How the results depend on the processing

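Under the 3 other scalings, a 5 FPKM filter and a pseudocount of 0.1, between 9 and 13 import genes were called lower in limma; none was called higher, except Tomm7 under quantile normalization, which made that count 1. Without a filter no import gene was called (0 lower and 0 higher, 20 at an unadjusted p under 0.05), and 30 loci were called over the whole table. Leaving out 1 sample at a time gave 0 to 4 import genes called lower, and 14 to 486 calls over all loci; the lone sample left in a group was assumed to vary like the other group. The median log2 fold change of the import genes was -0.54 under quantile normalization and ranged from -0.82 to -0.59 when 1 sample was left out. Of the other import-linked genes, 4 were called lower when values were rescaled to the sum of all loci but the globins and the 10 most abundant (rescaled sums), 0 without a filter and 0 to 1 without 1 sample. Those called higher numbered 3 under quantile normalization, 0 under median-of-ratios scaling, 0 with the rescaled sums, 0 without a filter and 0 without any 1 sample. The direction turned only in genes that had not passed. Dnajc19 went to 0.10 and Tomm40l to 0.01 under quantile normalization, and Tomm40l to 0.07 with the rescaled sums. With 1 sample left out, the log2 fold change ran from -0.25 to 0.03 for Dnajc19, from -0.09 to 0.32 for Timm17b, from -0.05 to 0.25 for Timm8b and from -0.26 to 0.21 for Tomm40l. Same-numbered samples deviated from their group means with a correlation of 0.17 over 12890 loci. With 2 pairs this does not show that the numbers pair the samples. A replicate block gave 15 import genes lower, adding Timm17a, Tomm70a and Timm21 (adjusted p = 0.0324, 0.0376 and 0.0304), 4238 calls over all loci, and 2 other import-linked genes higher. The cause of these shifts was not tested. Only 2 samples a group and an unknown depth limit the precision throughout.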

Other observations

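Some import-linked genes outside the rule had higher values in both induced samples without passing the threshold. Immp1l, a subunit of the inner membrane peptidase, was at 55.7 and 75.8 FPKM in induced and 38.7 and 23.5 FPKM in uninduced samples (log2 fold change 1.08 ± 0.31, limma adjusted p = 0.0599). Yme1l1, a protease of the inner membrane, was at 72.6 and 52.1 FPKM in induced and 41.1 and 29.9 FPKM in uninduced samples (0.79 ± 0.27, adjusted p = 0.0858). Clpx, the unfoldase of a matrix protease, was at 33.4 and 30.4 FPKM in induced and 22.8 and 18.6 FPKM in uninduced samples (0.61 ± 0.20, adjusted p = 0.083). They were picked for naming once the values were known.

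Among the 28 import genes tested, 19 were lower in induced replicate 2 than in induced replicate 1 and 21 were lower in uninduced replicate 2 than in uninduced replicate 1. The median log2 difference was -0.18 in both groups, beside 0.03 in the induced and -0.07 in the uninduced samples over all loci.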
